A study of Mus musculus with 4 samples.

Results

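The genes described here encode the secreted and membrane-bound enzymes that cut extracellular matrix, and the proteins that hold those enzymes in check. They are the matrix metalloproteinases (MMPs), the ADAMTS proteinases (a disintegrin and metalloproteinase with thrombospondin motifs) and the tissue inhibitors of metalloproteinases (TIMPs). Members were all probe sets annotated with a single gene symbol that starts with Mmp, Adamts or Timp followed by a digit, with the ADAMTS-like genes left out. This gave 70 of 45037 probe sets and 37 of 18193 genes, of which 18 were MMPs, 15 ADAMTS genes and 4 TIMPs.

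The levels come from 4 Affymetrix arrays of total RNA from immortalised mouse embryonic fibroblasts (MEFs), made to find genes regulated by PA1. PA1 -/- cells (2 arrays) were PA1 loxP/loxP MEFs given a retrovirus with Cre recombinase, which cuts out DNA between loxP sites, and PA1 +/+ cells (2 arrays) were the same floxed MEFs given the retroviral vector alone. Both came from MEFs with loxP-flanked alleles, were grown with 10% serum and went through rounds of puromycin at 2.0 ug/ml for 3 days. The vector cells carried no Cre, so effects of Cre itself and of PA1 loss cannot be told apart, and the labels do not say whether the cells came from 1 clone. The labels number the arrays of each genotype 1 and 2 without naming them as separate cultures, so a p-value here weighs a difference against the spread of these 4 samples alone, part of which may be technical.

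In connective tissue these enzymes share the work of matrix turnover. Collagenases make the first cut in fibrillar collagen, gelatinases digest the unwound chains, stromelysins have broad substrates and activate other MMPs, and membrane-type MMPs act at the cell surface. ADAMTS enzymes process procollagens, cleave the large aggregating proteoglycans or bind microfibrils. Both enzyme families are zinc proteinases made as inactive precursors, and TIMPs block the active enzymes. Enzyme activity is therefore set after transcription as well, and the arrays measured messenger RNA only.

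Values are MAS5 signals, a linear brightness per probe set, and differences are PA1 -/- minus PA1 +/+ of log2(signal + 9.96). Probe sets in the upper 50% by mean log2 signal, a boundary near a signal of 62.8, were tested with limma, and a gene was read through its brightest tested probe set. Signals of different probe sets cannot be ranked as amounts of RNA. By this rule 19 of the 37 member genes were tested (8 MMPs, 8 ADAMTS genes and 3 TIMPs), through 37 probe sets. The other 18 genes had only dim probe sets. Among all genes, 41.1% had no tested probe set.

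The 4 arrays had median signals between 63.2 and 66.4, and their small number limits the precision. Pagr1a, the gene read here as PA1, had signals of 108 and 113 in PA1 -/- cells, against 1340.3 and 1389 in PA1 +/+ cells, a log2 difference of -3.51. Whether these probes lie in the deleted part of the gene is not stated in the labels. All 10 fibroblast markers were above the boundary by mean log2 signal. Their summed signals were 79730 to 89066 on the PA1 -/- arrays and 91670 to 109361 on the PA1 +/+ arrays. Of them, 7 were lower in PA1 -/- cells at both numbers, 0 were higher at both and 3 had opposite signs. The largest difference was that of Pdgfra, 134 and 210 in PA1 -/- cells, against 1515 and 357 in PA1 +/+ cells (log2 difference -2.07). Postn was under the boundary on the arrays numbered 2, at 4.36 in PA1 -/- and 22.4 in PA1 +/+ cells. Markers of other cell types were mostly dim: 2 of 6 macrophage, 1 of 4 endothelial, 2 of 4 epithelial and 1 of 4 muscle markers were above the boundary, and none was listed at 0. The summed macrophage signals were 365 to 451 in PA1 -/- cells and 295 to 400 in PA1 +/+ cells, and the defining marker Ptprc read between 3.83 and 16.8 on all arrays. Of the 2 macrophage markers above the boundary, Csf1r was higher in PA1 -/- cells at both numbers (175 and 147, against 94.9 and 91.3). Cd68 was lower in PA1 -/- cells at both numbers (173 and 133, against 224 and 165). Summed signals in PA1 -/- and PA1 +/+ cells were 135 to 147 and 107 to 131 for endothelial, 267 to 443 and 233 to 657 for epithelial, and 113 to 149 and 91.9 to 108 for muscle markers. The part of other cells in the results below was not tested, and in bulk RNA fewer cells of a type and less RNA per cell cannot be told apart.

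Across the family, no member gene passed limma. With genotype as the only term, 0 of 19 tested genes had an adjusted p under 0.05 (limma, smallest adjusted p = 0.9998). Among all 10714 tested genes there were 0 as well (0%). Pagr1a, though far lower in PA1 -/- cells, did not pass this fit either (limma adjusted p = 0.876). The lack of calls therefore does not show that the members were unchanged. At an unadjusted p under 0.05 there was 1 member, Timp2, against 2.16% of all tested genes. This fit counts the difference between replicate numbers as spread, and the smallest p of an exact permutation test over these 4 arrays is 0.333. Genotypes were therefore also compared within each number.

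No member differed at least 2-fold in the same direction at both numbers. The counts were 0 of 19 lower and 0 of 19 higher, where 0.831% of all tested genes passed this limit on the lower side and 0.187% on the higher side. At 1 number alone, Timp3 was at least 2-fold lower at number 1, where 2.47% of all genes were, and 0 members were at least 2-fold higher there, against 1.36%. Adamts5 and Mmp19 were at least 2-fold lower at number 2, where 2.13% of all genes were, and Adamts7 was at least 2-fold higher there, against 0.896%. At a 1.5-fold limit at both numbers, Adamts7 was the 1 member on the higher side (1.46% of all genes) and 0 were on the lower side (2.55%).

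Of the 19 members, 13 had a mean difference below 0 and 6 above 0, beside 5004 below and 5710 above among all tested genes. By number, 9 were lower in PA1 -/- cells at both numbers, 4 were higher at both and 6 had opposite signs, where 29.3%, 33.9% and 36.8% of all tested genes did so. Among the 9, Mmp19 and Adamts9 read under the boundary on both arrays numbered 1, as it applies to the mean over arrays. Timp1, also among the 9, differed by only -0.015 and -0.003, and Adamts6, among the 4, by only 0.035 and 0.033. The signs of the Timp1 and Adamts6 means turned under other settings. The median log2 difference of the members was -0.17, at 0.02 within number 1 and -0.14 within number 2, beside 0.02 over all tested genes. By family the median was -0.18 for the 8 MMPs, -0.12 for the 8 ADAMTS genes and -0.34 for the 3 TIMPs. The TIMP median is the value of the brightest Timp2 probe set alone. The other tested Timp2 probe sets had means between -0.08 and 0.11. In 1 member, Timp2, the 2 genotypes did not overlap (lower in PA1 -/- cells), where 11.3% of all genes were lower without overlap and 26.3% did not overlap in either direction.

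**Figure D1:**
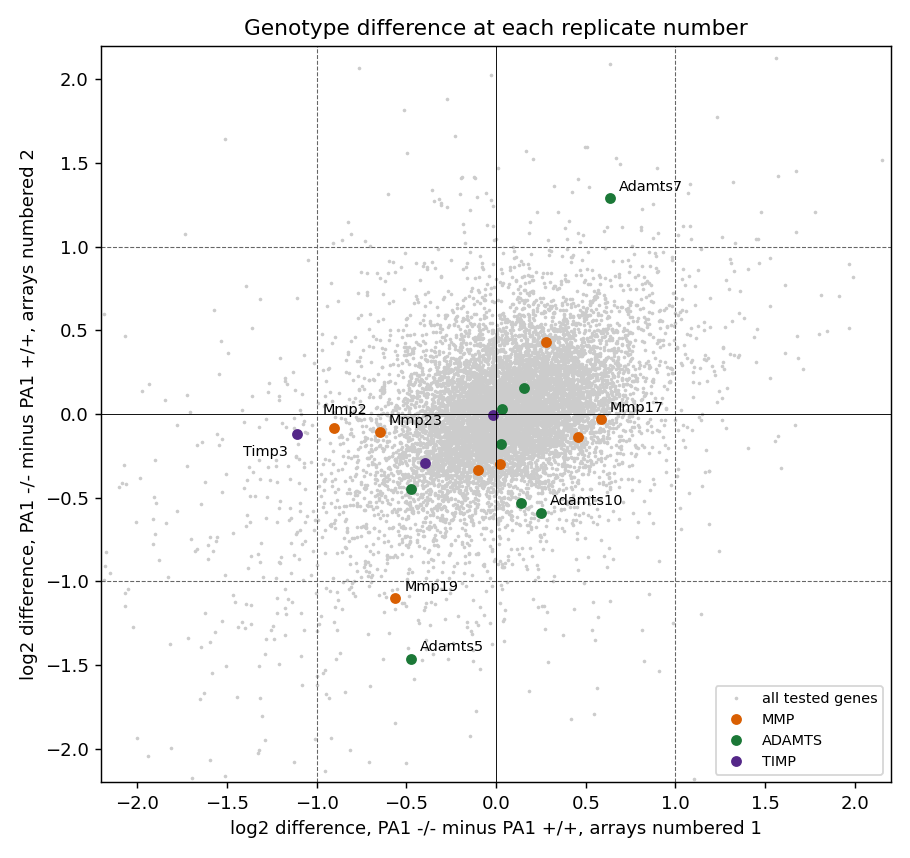
Log2 difference between PA1 -/- and PA1 +/+ cells for the arrays numbered 1 (horizontal axis) and numbered 2 (vertical axis), for all tested genes (grey) and the 19 tested members (coloured by family), with dashed lines at 2-fold and 63 of the 10714 genes outside the axes. No member lies beyond the dashed lines on both axes, Adamts5 and Mmp19 lie low at number 2, Adamts7 high at number 2 and Timp3 low at number 1.

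The secreted collagenases, the matrilysin gene Mmp7 and the stromelysins Mmp3 and Mmp10 did not pass the filter on dim probe sets. In RefSeq (GRCm38.p6) 10 MMP genes follow each other on chromosome 9 with no other protein-coding gene between them, and 9 of them are members: Mmp13, Mmp12, Mmp1b, Mmp3, Mmp1a, Mmp10, Mmp8, Mmp20 and Mmp7. Not one of these 9 genes passed the filter on dim probe sets, and all but 1 of their 36 signals lay under 62.8. That signal came from Mmp3 (stromelysin 1), which read 35.8 and 53.4 in PA1 -/- cells, against 29.7 and 76.9 in PA1 +/+ cells. Mmp10 (stromelysin 2) read 5.35 and 53.2 in PA1 -/- cells, against 34.1 and 62.6 in PA1 +/+ cells. Mmp13 (collagenase 3) read 3.03 and 5.99 in PA1 -/- cells, against 1.04 and 16.0 in PA1 +/+ cells. The genotypes overlapped for all 3 of these genes, and no direction is drawn from signals this low. Mmp1a and Mmp1b are close paralogs, so their probe sets may share signal.

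**Figure D2:**
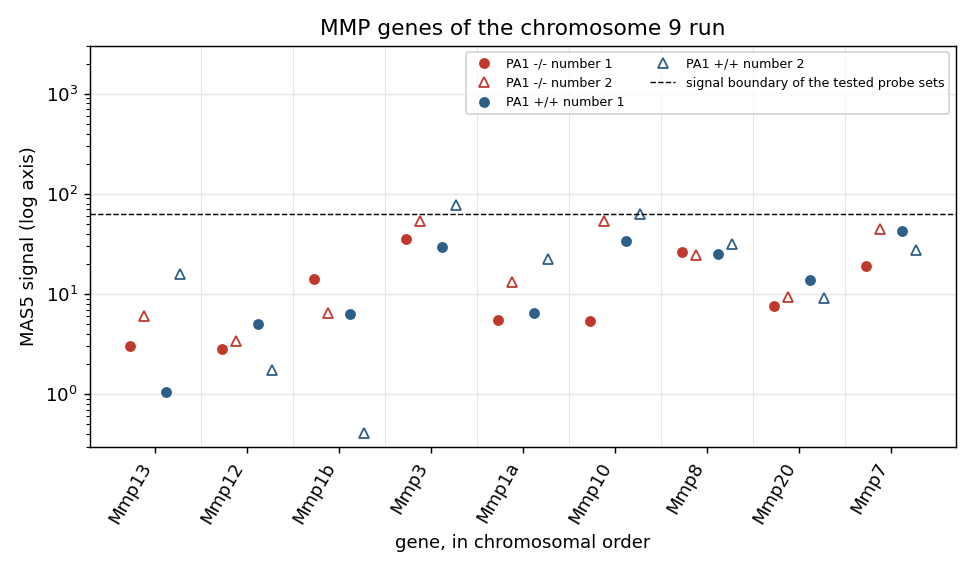
MAS5 signal (log axis) of the 9 member genes of the chromosome 9 run, in chromosomal order, on the PA1 -/- arrays (red) and the PA1 +/+ arrays (blue), circles for number 1 and triangles for number 2, 1 point per array. The dashed line is the boundary of the tested probe sets, a signal of 62.8, and 1 of the 36 points, Mmp3 on the PA1 +/+ array numbered 2, lies above it.

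The promoters of these neighbours are shown because they share a sequence feature that the rule did not use. AP-1, a dimer of Jun and Fos proteins, binds such letters in many MMP promoters, as known from work on individual genes. The motif TGANTCA, which reads as TGANTCA on both strands, was searched in RefSeq promoters of GRCm38.p6 from 250 bases before to 50 bases after the start. It was found at 8 of the 9 run members, in 8 of their 11 promoter entries, and not at Mmp8. The letters were TGAGTCA in 6 of these promoters, TGACTCA in Mmp13 and TGAATCA in Mmp20. It was found in 0 of 15 entries of the 14 other members with an entry, and in 7.81% of 32851 promoters of the same length. Counting TGAGTCA and TGACTCA alone gave 7 of the 11 run entries, 0 of the 15 other entries and 5.2% of all promoters. The first letter lay at -63 in Mmp10 and Mmp7, at -46 in Mmp3, -44 in Mmp12, -35 in Mmp13, -73 in Mmp1a, -93 in Mmp1b and -95 in Mmp20. Printed below are 110 bases before to 10 bases after the start of 6 run members and, for comparison, of Mmp14 on chromosome 14, with the motif in capitals. The windows are chr9:7272404-7272523 (plus strand) for Mmp13, chr9:7388017-7388136 (minus strand) for Mmp1b, chr9:7445712-7445831 (plus) for Mmp3, chr9:7464031-7464150 (plus) for Mmp1a, chr9:7502232-7502351 (plus) for Mmp10, chr9:7691980-7692099 (plus) for Mmp7 and chr14:54431488-54431607 (plus) for Mmp14.
Mmp13: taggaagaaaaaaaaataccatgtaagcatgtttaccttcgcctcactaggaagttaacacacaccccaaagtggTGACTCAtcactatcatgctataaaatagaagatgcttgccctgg
Mmp1b: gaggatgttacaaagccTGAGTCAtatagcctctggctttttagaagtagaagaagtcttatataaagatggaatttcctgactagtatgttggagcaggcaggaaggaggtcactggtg
Mmp3: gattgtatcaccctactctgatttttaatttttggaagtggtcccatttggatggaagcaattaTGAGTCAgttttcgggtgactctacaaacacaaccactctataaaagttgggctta
Mmp1a: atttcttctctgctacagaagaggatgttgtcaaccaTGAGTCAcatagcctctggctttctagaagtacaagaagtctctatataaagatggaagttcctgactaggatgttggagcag
Mmp10: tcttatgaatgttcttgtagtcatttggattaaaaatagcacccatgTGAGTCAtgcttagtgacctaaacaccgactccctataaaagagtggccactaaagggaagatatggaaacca
Mmp7: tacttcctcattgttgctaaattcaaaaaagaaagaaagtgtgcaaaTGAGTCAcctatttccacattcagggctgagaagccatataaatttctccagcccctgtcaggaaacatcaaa
Mmp14: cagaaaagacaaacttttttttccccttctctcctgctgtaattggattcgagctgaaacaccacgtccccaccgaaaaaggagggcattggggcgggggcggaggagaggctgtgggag

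In the 6 run windows the capitals spell TGAGTCA in 5 and TGACTCA in Mmp13, and the Mmp14 window has none. The PEA3-type motif AGGAAG, on either strand, was in 8 of the 11 entries of the run, in 5 of the 15 entries of the other members and in 35.4% of all promoters, and it overlapped no AP-1 match. A match is a run of letters and not a measured binding site. The table held no promoter of Adamts4, Adamts5, Adamts6, Adamts7, Adamts8, Adamts10, Adamts15, Adamts16, Adamts19, Mmp2, Mmp9, Mmp16, Mmp17 or Mmp19.

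Most genes for factors that bind AP-1 and PEA3-type sites were above the boundary. Of 12 such genes listed, 11 were on the array and 10 were tested. Of these, 4 were lower in PA1 -/- cells at both numbers and 3 higher at both, and 0 passed limma with genotype as the only term. With the replicate number as a further term, Fos and Ets1 passed (limma adjusted p = 0.00597 and 0.0199). Fos read 674 and 102 in PA1 -/- cells, against 1479.7 and 462 in PA1 +/+ cells, a log2 difference of -1.60. Ets1 read 2266 and 1228 in PA1 -/- cells, against 1289.7 and 568 in PA1 +/+ cells, a log2 difference of 0.95. Jund differed by -0.66 and Fosl1 by 0.64.

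Of the gelatinases, Mmp2 was tested and Mmp9 was dim, with signals between 1.78 and 10.4 over both its probe sets and all arrays. Mmp2, which digests denatured collagen and basement membrane collagen, read 3039 and 7401 in PA1 -/- cells, against 5701 and 7839 in PA1 +/+ cells. The lowest of the 4 values was the PA1 -/- array numbered 1, and the genotypes overlapped. The log2 difference was -0.91 at number 1 and -0.08 at number 2, with a mean of -0.49 (SE 0.469, limma adjusted p = 0.9998). Its other probe set gave -0.87 and -0.12, nearly the same pattern.

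Mmp11, the stromelysin that is activated by furin inside the cell, was the 1 tested gene of its class. It read 484 and 718 in PA1 -/- cells, against 350 and 790 in PA1 +/+ cells, with log2 differences of 0.46 and -0.14. Its direction thus changed with the number, and the values overlapped. Furin itself read 565 and 836 in PA1 -/- cells, against 362 and 701 in PA1 +/+ cells.

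All 4 membrane-type MMP genes among the members were tested, and the genotypes overlapped in each. Mmp15 and Mmp25, of the same class, were not among the members. Mmp14, the cell-surface collagenase that also activates the Mmp2 precursor, read 5363 and 4148 in PA1 -/- cells, against 5743 and 5222 in PA1 +/+ cells. The groups overlapped narrowly, with log2 differences of -0.10 and -0.33 at numbers 1 and 2. A second probe set gave -0.18 and -0.25, and the third gave 0.18 and 0.04. Mmp16 read 905 and 1599 in PA1 -/- cells, against 745 and 1186 in PA1 +/+ cells, and was higher at both numbers (0.28 and 0.43). Its 3 other tested probe sets all lay above 0 at number 2, from 0.73 to 0.85, but at number 1 they were 0.49, -0.52 and -0.34. Mmp17 and Mmp24 lay near the boundary, with mean differences of 0.28 and -0.14 and opposite signs at the 2 numbers, with Mmp17 0.59 higher at number 1. The brightest Mmp24 probe set gave 0.02 and -0.30 at numbers 1 and 2, and its other tested probe set gave -0.22 and 0.05.

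The remaining tested MMPs were Mmp19 and Mmp23. Mmp19, a secreted enzyme of basement membrane and other matrix proteins, read 24.4 and 119 in PA1 -/- cells, against 40.7 and 266 in PA1 +/+ cells. It was lower in PA1 -/- cells at both numbers, by 1.47-fold at number 1 and 2.14-fold at number 2, with a mean log2 difference of -0.83 (SE 1.05, limma adjusted p = 0.9998). Both signals at number 1 lay under the boundary. A second probe set, just under the boundary, read 14.6 and 69.0 in PA1 -/- cells, against 35.0 and 183 in PA1 +/+ cells. Mmp23 read 70.2 and 460 in PA1 -/- cells, against 116 and 496 in PA1 +/+ cells, with log2 differences of -0.65 and -0.11. Its other probe set was lower at number 1 (-0.70) and higher at number 2 (0.20).

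Among the ADAMTS proteoglycanases, which cut aggrecan and versican, Adamts5 had the lowest difference. Its brightest probe set read 2872 and 263 in PA1 -/- cells, against 3989 and 741 in PA1 +/+ cells. The arrays numbered 1 were far above those numbered 2 in both genotypes, so the groups overlapped, while at each number the PA1 -/- array was the lower. The difference was 1.39-fold at number 1 and 2.75-fold at number 2, with a mean log2 difference of -0.97 (SE 1.37, limma adjusted p = 0.9998). The second probe set read 2267 and 270 in PA1 -/- cells, against 3721 and 674 in PA1 +/+ cells. The third read 1298 and 155 in PA1 -/- cells, against 2544 and 411 in PA1 +/+ cells. All 3 tested probe sets were thus lower in PA1 -/- cells at both numbers, by 0.47 to 0.96 on the log2 scale at number 1 and by 1.29 to 1.46 at number 2. Another probe set was dim, between 0.347 and 10.4, and gives no direction.

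The other proteoglycanase genes showed smaller differences. Adamts1 read 2669 and 601 in PA1 -/- cells, against 2620 and 683 in PA1 +/+ cells. Its genotypes differed by 0.03 at number 1 and -0.18 at number 2, far less than the numbers did. Adamts4 read 209 and 121 in PA1 -/- cells, against 189 and 179 in PA1 +/+ cells, with opposite signs at the 2 numbers. Adamts9 read 29.3 and 120 in PA1 -/- cells, against 44.5 and 168 in PA1 +/+ cells, and was lower at both numbers (-0.47 and -0.45). Its signals at number 1 lay under the boundary in both genotypes. Its other 2 probe sets were dim and give no direction. Adamts8, Adamts15 and Adamts20 were dim, with no signal above 37.7.

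The COMP-cleaving enzymes, named for cartilage oligomeric matrix protein, were both above 0 at both numbers. Adamts7 read 81.1 and 466 in PA1 -/- cells, against 48.7 and 184 in PA1 +/+ cells. It was 1.55-fold higher in PA1 -/- cells at number 1 and 2.45-fold higher at number 2, with a mean log2 difference of 0.96 (SE 0.994, limma adjusted p = 0.9998). The array numbered 2 of PA1 +/+ cells still read above the array numbered 1 of PA1 -/- cells, so the groups overlapped. Adamts12 read 230 and 115 in PA1 -/- cells, against 205 and 102 in PA1 +/+ cells, a log2 difference of 0.16 at number 1 and 0.15 at number 2. Adamts7 had 1 probe set, so no second reading of it exists here.

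Adamts10 and Adamts6 are linked to fibrillin microfibrils. Adamts10 read 410 and 400 in PA1 -/- cells, against 343 and 607 in PA1 +/+ cells, with log2 differences of 0.25 and -0.59, so its sign turned with the number. Adamts6 read 174 and 254 in PA1 -/- cells, against 170 and 248 in PA1 +/+ cells, and differed by 0.04 and 0.03. Its other tested probe set gave -0.31 at number 1 and 0.14 at number 2. The procollagen N-proteinase gene Adamts3 and the genes Adamts16, Adamts18 and Adamts19 were dim. Adamts2 and Adamts14, of the same class as Adamts3, were not among the members.

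**Figure D3:**
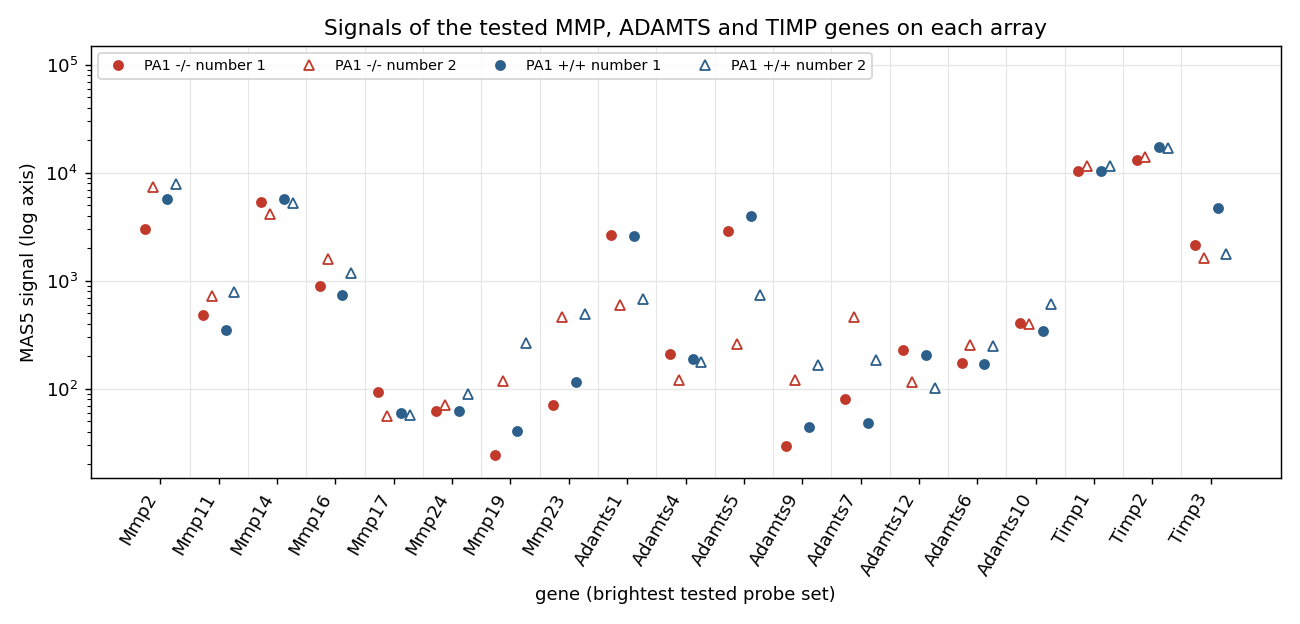
MAS5 signal (log axis) of the brightest tested probe set of the 19 tested members on each array, PA1 -/- in red and PA1 +/+ in blue, circles for number 1 and triangles for number 2, 1 point per array. Adamts1 and Adamts5 are high on the arrays numbered 1, Mmp19, Mmp23, Adamts7 and Adamts9 on those numbered 2, and Timp1 is level on all 4.

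The inhibitors were above the boundary except for Timp4, whose signals lay between 1.40 and 28.1. Timp1 read 10398 and 11539 in PA1 -/- cells, against 10509.7 and 11563 in PA1 +/+ cells. The log2 difference was -0.02 at number 1 and 0.00 at number 2, and its sign turned with the scaling, to 0.10 after quantile normalization. Timp2, which blocks MMPs and also helps Mmp14 bind the Mmp2 precursor, read 13229 and 13934 in PA1 -/- cells, against 17418 and 17038 in PA1 +/+ cells. Both PA1 -/- arrays were below both PA1 +/+ arrays, with a mean log2 difference of -0.34 (SE 0.122, unadjusted p = 0.0398, adjusted p = 0.9998, limma). Its 4 other tested probe sets did not show this difference, with means between -0.08 and 0.11.

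Timp3, the inhibitor that binds to matrix and also blocks ADAMTS enzymes, was lower in PA1 -/- cells mainly at number 1. Its brightest probe set read 2166 and 1645 in PA1 -/- cells, against 4687 and 1786 in PA1 +/+ cells, so the PA1 +/+ array numbered 1 stood above the other 3. The second read 1408 and 1362 in PA1 -/- cells, against 2727 and 1137 in PA1 +/+ cells. The remaining 2 probe sets did not overlap between genotypes: one read 398 and 389.5 in PA1 -/- cells, against 759 and 484 in PA1 +/+ cells, and the other 323 and 305 in PA1 -/- cells, against 684 and 375 in PA1 +/+ cells. The 4 probe sets are annotated to the same sequence and were read on the same RNA samples, so they are not independent readings. All 4 probe sets lay between -1.11 and -0.91 on the log2 scale at number 1. At number 2 they lay between -0.31 and 0.26. The mean of the brightest was -0.61 (SE 0.507, limma adjusted p = 0.9998). Whether the difference itself changed between the numbers cannot be tested with 1 array per genotype and number.

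**Figure D4:**
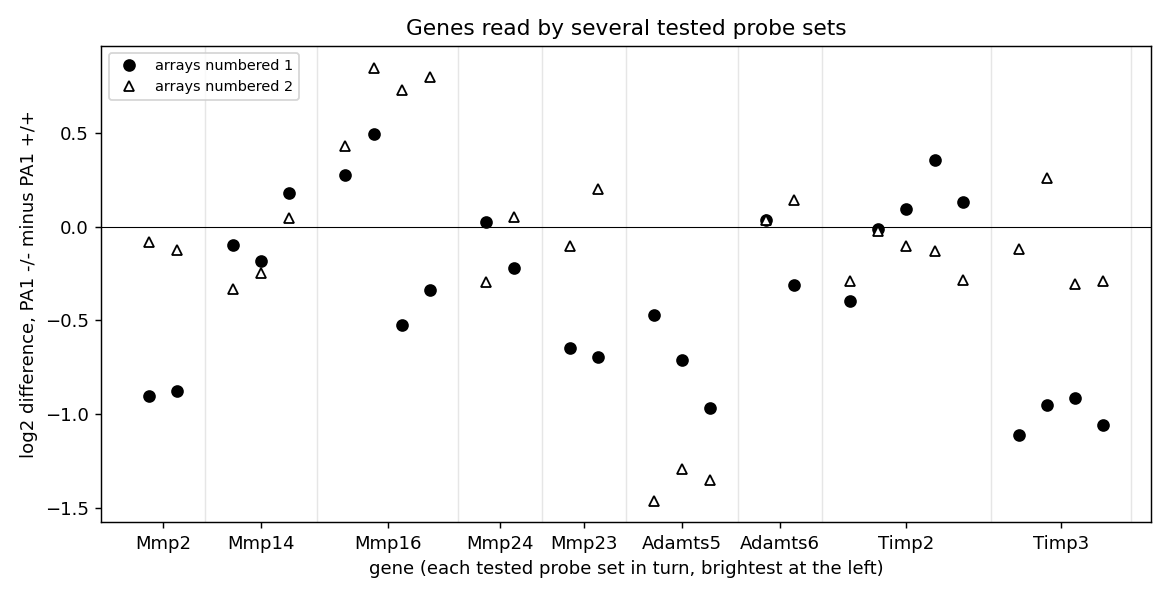
Log2 difference between PA1 -/- and PA1 +/+ cells for each tested probe set of the 9 members read by several, at number 1 (filled circles) and number 2 (open triangles). All 3 Adamts5 probe sets lie below 0 at both numbers, the 4 Timp3 and 2 Mmp2 probe sets are low at number 1, and 3 of the 4 Timp2 probe sets other than the brightest take opposite signs at the 2 numbers.

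Members differed more between the replicate numbers than between the genotypes. The median absolute log2 difference between numbers was 0.86 over the 19 tested members, against 0.28 between genotypes, and over all tested genes it was 0.34 against 0.19. In 18 of the 19 members the difference between numbers was the larger, as in 67.5% of all tested genes, with Timp2 the exception. In both genotypes, 6 members stood at least 2-fold apart between the numbers in the same direction, where 8.3% of all tested genes did. Mmp19, Mmp23, Adamts7 and Adamts9 (4 members, against 3.78% of all genes) were higher on the arrays numbered 2, and Adamts1 and Adamts5 (2 members, against 4.52%) on the arrays numbered 1. For Adamts5 the arrays numbered 1 were 10.6-fold higher in PA1 -/- cells and 5.33-fold higher in PA1 +/+ cells. Across the 22519 tested probe sets, Pearson's r of log2 signals was 0.971 and 0.977 between the genotypes at numbers 1 and 2, and 0.920 and 0.918 between the numbers within PA1 -/- and PA1 +/+ cells. What distinguishes the numbers is not given in the labels.

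**Figure D5:**
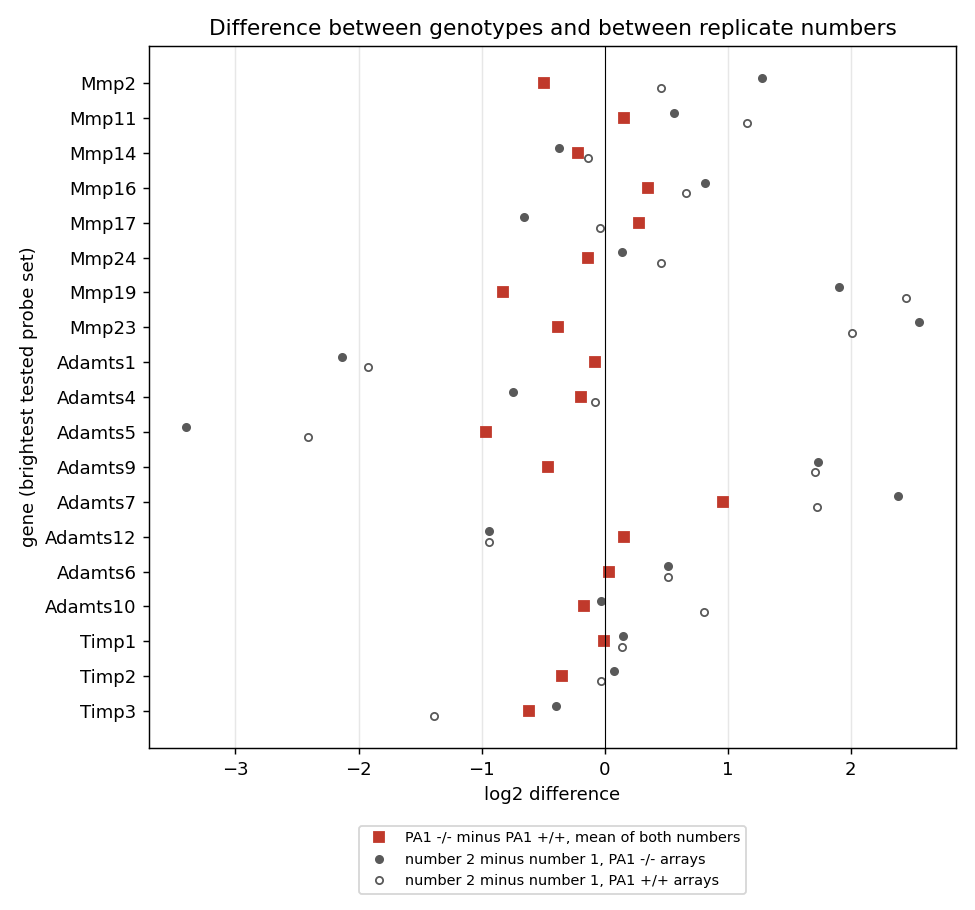
Log2 difference between genotypes (red squares, PA1 -/- minus PA1 +/+, mean of both numbers) and between replicate numbers (number 2 minus number 1, filled circles for PA1 -/- and open circles for PA1 +/+ arrays) for the 19 tested members. The circles lie farther from 0 than the squares for every gene but Timp2 when both genotypes are averaged, with Adamts5 at -2.91 and Mmp23 at 2.28.

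Genes that act with these enzymes were read from lists of named genes. Of 7 plasminogen system genes on the array, whose plasmin activates MMP precursors, 2 were tested: Plaur, the urokinase receptor gene, was higher at both numbers (2462 and 4118 in PA1 -/- cells, against 1759 and 2505 in PA1 +/+ cells; log2 difference 0.60), and Plat was lower at both (-0.44). Of 11 tested activators, cell-surface regulators and clearance genes, 4 were lower at both numbers, 3 higher at both and 4 of opposite sign. The lowest was Thbs2, whose thrombospondin product mediates Mmp2 uptake (351 and 16.1 in PA1 -/- cells, against 1342 and 32.9 in PA1 +/+ cells; -1.31). It did not pass limma with genotype as the only term (adjusted p = 0.9998), and its log2 difference between numbers, 2 minus 1, was -4.38. With the replicate number as a further term the limma adjusted p was 0.0432. Both Thbs2 signals at number 2 lay under the boundary. The proprotein convertase gene Pcsk6 differed by -0.85, Furin by 0.44 and Cd44 by 0.28.

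Among 10 tested ADAM and astacin genes, 1 was lower at both numbers and 4 higher at both, and 0 passed limma. Adam8 was the lower one (-0.80), and Mep1a (0.71), Bmp1 (0.58), the procollagen C-proteinase gene, and Adam9 (0.42) were higher. Of 7 ADAMTS-like and papilin genes, which carry no proteinase domain, 3 were tested. Adamtsl3 read 130 and 175 in PA1 -/- cells, against 332 and 490 in PA1 +/+ cells. It was without overlap and more than 2-fold lower at both numbers (-1.29 and -1.43). Its limma adjusted p was 0.9998 with genotype as the only term and 0.00687 with the replicate number as a further term. Adamtsl5 differed by -0.70. Of the substrates, Vcan (versican) read 776 and 2239.6 in PA1 -/- cells, against 2032 and 2788 in PA1 +/+ cells (-0.85), and Acan differed by -1.40 at number 1 and 0.77 at number 2, where it was dim.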

How the data were processed

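Biotin-labelled total RNA of each of the 4 samples was measured on its own Affymetrix array. The deposited values were intensities on a linear scale, 1 signal per probe set, and the submitters' processing notes name MAS5 as the software. Its version, scaling and background settings are not stated in the labels. The table held 45037 probe sets after 64 controls were left out. The platform annotation gave 1 symbol for 34945, several for 932 and none for 9160. All 37 member symbols matched RefSeq (GRCm38.p6), which also gave the promoter sequences and gene order.

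A pseudocount of 9.96, the 20th percentile of all values, was added before taking log2, which understates differences of dim genes. The 22519 probe sets in the upper 50% by mean log2 value entered limma 3.58.1 in R 4.3.3 (lmFit, eBayes with an intensity trend), 2-sided, with genotype as the only term and p-values adjusted over all of them (Benjamini-Hochberg). Every p of a gene or probe set comes from limma. Every tested member was named by its brightest tested probe set, with signals of all arrays for the TIMPs, for members 2-fold apart in the mean or at a number and for the brightest, and signals of further members were added after their values were seen. Up to 4 genes of each list of related genes were named, those with the largest difference of one sign at both numbers, and others were named after their values were seen. Members and lists were chosen with earlier results of these data known. Alternatives were 3 normalizations, other pseudocounts, filters, variance models and thresholds, the mean over probe sets of a gene, the replicate number as a block, and fits without 1 array. Figures used matplotlib 3.10.9 in Python 3.11.15.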

Additional observations from a re-analysis of the deposited data

How the results depend on the processing

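The count of 0 member genes past limma was the same under all alternatives, including the replicate block. With that block, a fit in which the difference between numbers is not spread, 0 of the 19 brightest probe sets passed (smallest adjusted p = 0.0546, Adamts5), where 2.48% of all tested genes did, and 6 members had an unadjusted p under 0.05, as did 17.1% of all tested genes. The other Adamts5 probe sets passed with the block (limma adjusted p = 0.0239 and 0.0112), the 2 member probe sets of 37 that did, where 1.98% of all tested probe sets passed. Of the related genes named, Fos (0.00597), Adamtsl3 (0.00687), Ets1 (0.0199) and Thbs2 (0.0432) had a limma adjusted p under 0.05 with the block. Pagr1a (1.9e-05) and the fibroblast markers Postn (0.0109) and Pdgfra (0.0361) also had a limma adjusted p under 0.05 with the block. Deviations of same-numbered arrays from their genotype means correlated at 0.805, a value that 2 pairs make equal for both numbers, but the labels do not say that a number marks a shared culture or day. The counts of members past 2-fold at both numbers, 0 on the lower and 0 on the higher side, were the same under every normalization, pseudocount, filter and probe set rule run, and at 1.5-fold 1 gene was higher. They need all 4 arrays. The unadjusted p of Timp2, 0.0398, became 0.0638 to 0.109 after the 3 normalizations, 0.0955 without the filter, 0.197 without an intensity trend, 0.852 with the mean over probe sets and 0.0952 to 0.215 without 1 array. The Timp1 difference turned to 0.100 after quantile, 0.040 after median and 0.048 after cyclic loess normalization, and that of Adamts6 to -0.026 with the mean of its probe sets. Fits without 1 array hold unequal numbers in the 2 genotypes, so each difference then takes in part of the difference between replicate numbers. Where that difference is large, a changed sign follows from it and does not describe the genotype difference within a number. The member median then ran from -0.158 to 0.094 (0.094 without the PA1 +/+ array numbered 2, -0.050 without the PA1 -/- array numbered 1), and 17 of 19 members took both signs, Mmp14 and Timp2 excepted. The ranges were -2.67 to 0.73 for Adamts5, -0.23 to 2.16 for Adamts7, -1.33 to 0.41 for Adamts9, -0.31 to 0.63 for Adamts12 and -0.22 to 0.29 for Adamts6. They were -1.13 to 0.15 for Mmp2, -0.055 to 0.76 for Mmp16, -2.05 to 0.39 for Mmp19, -1.65 to 0.90 for Mmp23, -0.084 to 0.066 for Timp1 and -1.31 to 0.080 for Timp3. Detection calls were not used here, so dim probe sets give no direction.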
